A study of Mus musculus with 6 samples.

Results

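Semaphorins, plexins and neuropilins form a family of guidance ligands and receptors, and all 31 of its listed mouse genes were examined in fibroblast fractions sorted from pancreatic tumours. The members were chosen by name (20 semaphorins, 9 plexins and 2 neuropilins), matched to the count tables through the GENCODE annotation of GRCm38, and they make up 31 of the 49671 genes in each table. The libraries were 3 of a GFP fraction and 3 of a Tomato fraction, made by RNA sequencing of Podoplanin-positive cells. In every case the host was a C57BL/6J mouse carrying Rosa-mTmG and Fabp4-Cre, injected in the pancreas at 8 weeks of age with FC1199, a mouse pancreatic cancer line, and the tumour was taken 4 weeks later, at 12 weeks of age. The GFP fraction is labelled as cancer-associated fibroblasts (CAFs) derived from stellate cells, and the Tomato fraction as CAFs not derived from them. Under Rosa-mTmG a cell makes red Tomato protein unless Cre recombinase has turned on GFP in its place, so the GFP fraction is defined by past or present activity of the Fabp4 promoter. That promoter is known to be active in fat cells and in some endothelial cells and macrophages as well, and Podoplanin is also carried by lymphatic endothelium and mesothelium. Whether each replicate is an animal of its own is not given, so p-values measure the spread between these libraries, which may be technical.

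Semaphorins were first known as signals that turn back growing axons. Class 3 semaphorins are secreted and mostly act through a complex in which a neuropilin binds the ligand and a plexin A carries the signal into the cell, while classes 4 to 7 are held at the cell surface and bind plexins directly. Neuropilins also bind members of the VEGF family, which ties the same receptors to blood and lymphatic vessels, and class 4 semaphorins are known for their roles in immune cells. Axon guidance genes, semaphorins among them, are recurrently altered in human pancreatic cancer.

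Each library held between 33378377 and 42154933 counted reads. Fibroblast markers were abundant in both fractions, and 5 of 9 were higher in GFP and none lower, with a summed level of 64100 to 72300 CPM in GFP and 30000 to 44200 CPM in Tomato (CPM are read counts brought to a common library size, with TMM scaling to correct for library composition). Other cell types also differed. All 5 lymphatic endothelial markers tested were higher in GFP, with a sum over the 6 listed of 309 to 493 CPM in GFP and 22.2 to 77.6 CPM in Tomato, while the chemokine gene Ccl21a, whose near-identical copies make its count uncertain, was listed at 0 in every library. All 8 macrophage and monocyte markers were lower in GFP (108 to 174 CPM in GFP, 734 to 1790 CPM in Tomato), as were 7 of 8 mesothelial markers (145 to 166 CPM in GFP, 1160 to 1450 CPM in Tomato) and 5 of 7 epithelial markers (53.6 to 64 CPM in GFP, 389 to 449 CPM in Tomato). Most of the epithelial sum in Tomato was Krt8 (171 CPM), Krt18 (133 CPM) and Krt7 (82.1 CPM). Epcam averaged 4.94 CPM in GFP and 12.3 CPM in Tomato, and Cdh1 averaged 3.54 CPM in GFP and 11.9 CPM in Tomato. Muc1 and Cldn4 were not called. Of 8 blood endothelial markers, 6 were higher in GFP (133 to 179 CPM in GFP, 60.1 to 81.8 CPM in Tomato). Pericyte and smooth muscle markers summed to 461 to 760 CPM in GFP and 484 to 741 CPM in Tomato, with 2 of 7 higher and none lower. Schwann and neural markers summed to 10.9 to 14.5 CPM in GFP and 9.45 to 10.3 CPM in Tomato, and 1 of the 4 tested was higher (Cdh19, 0.91, edgeR adjusted p = 0.0354), while Sox10 had a single read in all, in Tomato replicate 1. Beside these marker counts, 13.1% of all genes tested were higher in GFP and 15.7% lower. In bulk RNA, fewer cells of a type and less RNA per cell cannot be told apart.

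In the fit reported, more members were higher than lower in GFP, among the ligands (8 higher, 4 lower) and among the receptors (5 higher, 1 lower). For the ligands this order depended on the fit. When transcript length and GC were modelled, 5 ligands were higher and 6 lower, and when scaled by library size alone 4 and 6. Without GFP replicate 1, 2 ligands were higher and 4 lower, among 920 genes higher and 1380 lower. Of the 31 genes, 30 passed the filter on low counts, and of these 13 were higher and 5 lower in GFP (edgeR's quasi-likelihood test, adjusted p under 0.05 over 15608 genes). Across all genes tested, 13.1% were higher and 15.7% lower in GFP, so that 28.9% were called in either direction. The median log2 fold change (GFP over Tomato) of the 30 members was 0.43, against 0.00 for all genes tested. For 19 of the 30 the libraries of the fractions stood apart without overlap, as they did for 48.6% of all genes tested. Both neuropilins, 3 plexins (Plxna1, Plxna3 and Plxnd1) and 8 semaphorins (Sema3b, Sema3d, Sema4c, Sema5b, Sema6a, Sema6b, Sema6c and Sema7a) were higher in GFP. The 5 lower genes were Plxnb1, Sema3a, Sema4a, Sema4b and Sema4d. Without a single library the number of higher members fell to 6 (without GFP replicate 1), 7 (GFP replicate 2), 6 (GFP replicate 3) or 8 (Tomato replicate 2), and the number of lower members to 3 (without GFP replicate 2 or GFP replicate 3), in fits with fewer samples. With the replicate number as a block, 14 members were higher and 7 lower, in a fit that called 20.1% of all genes higher, 20.9% lower and 41% in either direction. Scaling by library size alone gave 8 higher and 8 lower and moved the median of all genes to -0.16. The share of all calls that were higher in GFP was 45.5%, against 22.7% when scaled by library size alone, 64.9% when transcript length and GC were modelled, and 66.3% when the block was added to that model.

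**Figure D1:**
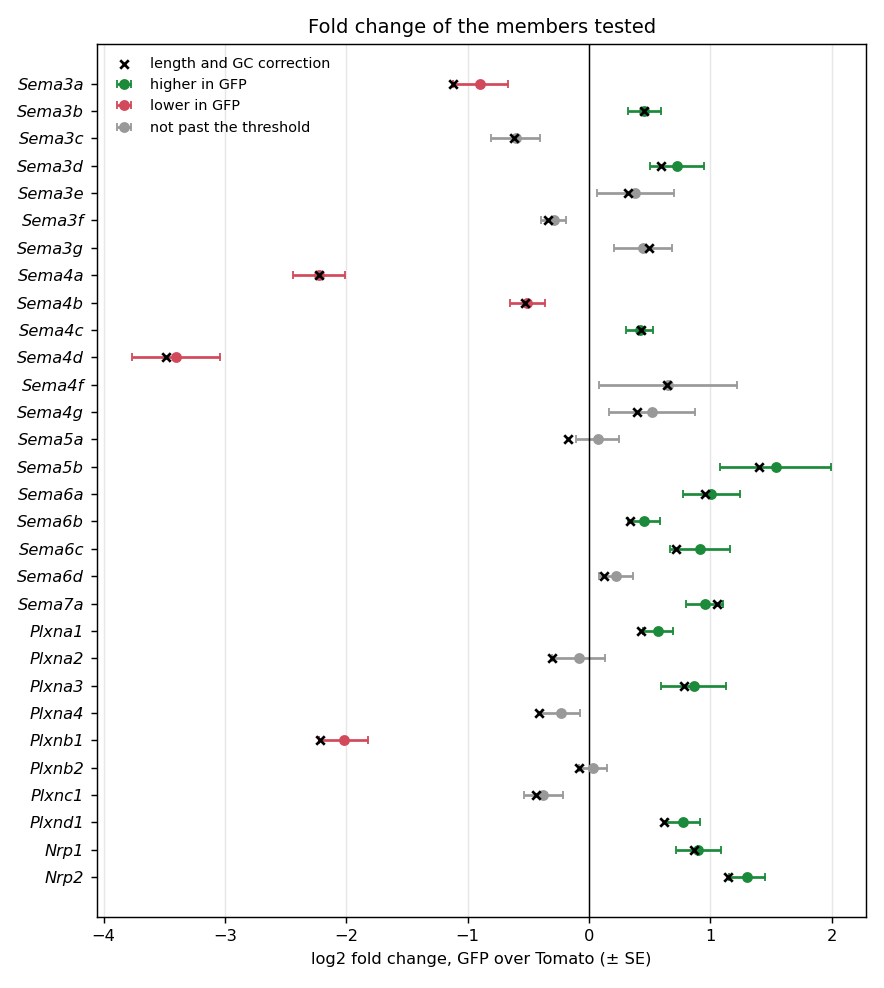
Log2 fold change, GFP over Tomato, of the 30 members tested, by edgeR, with bars for the standard error and black crosses for the value when transcript length and GC content were modelled. Sema4d, Sema4a and Plxnb1 lie furthest to the left, at -3.40, -2.23 and -2.02, and Nrp2 is at 1.30 on the right.

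Of the 18 members called, 6 kept their call under each of the 18 alternatives tried, namely Sema4a, Sema4d, Sema7a, Plxnb1, Plxnd1 and Nrp2. RefSeq promoter windows were found for 26 of the 31 members. The windows of the 4 genes among those 6 that have a single start in that table are shown, since their calls were the ones that did not depend on the processing. Each covers bases 250 to 51 before the RefSeq start on build GRCm38.p6, read 5′ to 3′ on the gene's strand, and lies outside the GENCODE transcript. Capitals mark the letters GGGCGG, the GC box bound by SP-family factors, on either strand. The letters CCAAT were also searched on both strands and are in none of the 4 windows.
Sema7a, chr9:57939862-57940061, plus strand: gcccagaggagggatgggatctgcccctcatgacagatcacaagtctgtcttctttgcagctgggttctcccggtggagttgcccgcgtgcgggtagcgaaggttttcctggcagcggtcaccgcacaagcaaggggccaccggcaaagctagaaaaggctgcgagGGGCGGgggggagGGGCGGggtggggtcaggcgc
Plxnb1, chr9:109095186-109095385, plus strand: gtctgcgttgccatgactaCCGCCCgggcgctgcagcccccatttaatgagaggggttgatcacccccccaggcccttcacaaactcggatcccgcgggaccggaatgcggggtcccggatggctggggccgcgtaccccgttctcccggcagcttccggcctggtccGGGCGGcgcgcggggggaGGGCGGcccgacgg
Plxnd1, chr6:115995056-115995255, minus strand: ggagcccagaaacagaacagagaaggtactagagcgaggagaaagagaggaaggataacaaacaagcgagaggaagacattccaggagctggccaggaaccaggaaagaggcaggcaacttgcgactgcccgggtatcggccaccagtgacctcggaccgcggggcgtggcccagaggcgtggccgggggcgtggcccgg
Nrp2, chr1:62703067-62703266, plus strand: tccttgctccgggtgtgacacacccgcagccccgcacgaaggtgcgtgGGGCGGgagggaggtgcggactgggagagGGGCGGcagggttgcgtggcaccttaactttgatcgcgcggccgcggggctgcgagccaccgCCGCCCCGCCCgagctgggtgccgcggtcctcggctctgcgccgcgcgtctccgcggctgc
The Nrp2 window holds 4 GC boxes, of which the last pair overlap by a base, the Plxnb1 window holds 3 and the Sema7a window holds 2. The Plxnd1 window holds none. Of 32851 promoter windows of the same length, 24.6% hold a GC box and 28.4% hold CCAAT. The GC content was 75.5% for Nrp2, 72.5% for Plxnb1, 65.5% for Sema7a and 62.5% for Plxnd1, against a median of 51.5% over all windows. Plxnb1, which was lower in GFP, and Nrp2, which was higher, thus share GC boxes in a GC-rich window.

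The 7 class 3 semaphorins, the secreted ligands of neuropilins, went both ways, with 2 higher, 1 lower and 4 not past the threshold. Over all genes tested, 13.1% were higher and 15.7% lower. Sema3a, the axon-repelling founder of the class and a ligand of Nrp1, had 22.4, 16.3 and 20.7 CPM in GFP, against 28.1, 32.3 and 50.3 CPM in Tomato. All GFP libraries lay below all Tomato libraries (log2 fold change -0.90 ± 0.23, SE; edgeR adjusted p = 0.0234). That call was lost without GFP replicate 2 (adjusted p = 0.0726), without GFP replicate 3 (0.0602) and with no filter on low counts (0.0731). Sema3d, known in mice for steering endothelial cells, had 61.7, 52.7 and 56.4 CPM in GFP, against 43.4, 37.6 and 22.3 CPM in Tomato. The fractions did not overlap, and the difference was 0.72 ± 0.22 (edgeR adjusted p = 0.0447). Sema3b, whose human counterpart is described as a tumour suppressor of lung cancer, had 58.6, 54.7 and 51.2 CPM in GFP, against 44.7, 43.7 and 31.6 CPM in Tomato (0.46 ± 0.14, edgeR adjusted p = 0.0385). Tomato replicate 3 was the low library for both genes. The Sema3d call was lost without any GFP replicate or Tomato replicate 2 (adjusted p from 0.0776 to 0.107), when scaled by library size alone (0.0551), with no filter (0.16) and when length and GC were modelled (0.0558). The Sema3b call was lost without any GFP replicate, Tomato replicate 2 or Tomato replicate 3 (adjusted p from 0.0514 to 0.12) and when scaled by library size alone (0.0937).

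The class 3 gene with the most reads was Sema3c, a ligand of both neuropilins that shapes the outflow tract of the heart. It had 90.9, 75.7 and 59.8 CPM in GFP, against 129.7, 129 and 84.7 CPM in Tomato. The fractions overlapped, because the highest GFP library exceeded the lowest Tomato library, and the difference did not pass (-0.60 ± 0.20, edgeR adjusted p = 0.0583). It passed as lower with the replicate number as a block (-0.59, edgeR adjusted p = 0.001), without GFP replicate 1 (-0.76, 0.0497) and without Tomato replicate 3 (-0.79, 0.00905), with DESeq2 (0.0145), when scaled by library size alone (0.0132) and when length and GC were modelled (0.0415). Sema3f, which prefers Nrp2 as its receptor, averaged 24.0 ± 2.60 CPM in GFP and 29.3 ± 0.525 CPM in Tomato (SD, n = 3 each), with no overlap but no call (-0.29, edgeR adjusted p = 0.0653). It passed as lower with the block (-0.29, edgeR adjusted p = 0.0362), when scaled by library size alone (-0.46, 0.0132) and when length and GC were modelled (-0.33, 0.0289). Sema3e, the ligand that binds Plxnd1 without a neuropilin, had 7.59 ± 2.72 CPM in GFP and 5.81 ± 2.01 CPM in Tomato (0.38, edgeR adjusted p = 0.391). The block brought it past the threshold as higher (0.38, edgeR adjusted p = 0.0365). Sema3g, made by endothelial cells, was low, averaging 2.46 ± 0.582 CPM in GFP libraries and 1.80 ± 0.224 CPM in Tomato (0.45, edgeR adjusted p = 0.188).

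Neighbouring class 3 genes did not share a direction. Sema3d, Sema3a, Sema3e and Sema3c lie in this order within the same stretch of chromosome 5 (GRCm38), from base 12383385 at the start of Sema3d to base 17730268 at the end of Sema3c. Of these, Sema3d was called higher, Sema3a lower and the other two were not called. On chromosome 9, Sema3b (107597674 to 107609229) lies near Sema3f (107681500 to 107710475), and of the pair Sema3b was called, as higher. On a scale per kilobase of exon, the Sema3d level was 4.44, 5.21 and 4.40 times that of Sema3a in GFP, against 2.49, 1.88 and 0.714 times in Tomato. The same ratio of Sema3c to Sema3b, which lie on different chromosomes, was 1.04, 0.926 and 0.781 in GFP, against 1.94, 1.98 and 1.79 in Tomato. Neither ratio overlapped between the fractions. For Sema3d over Sema3a this follows from the genes themselves, which each stood apart between the fractions, in opposite directions. The ratios are given as a description, since an exact two-sided permutation test of 3 libraries against 3 cannot go below 0.1.

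**Figure D2:**
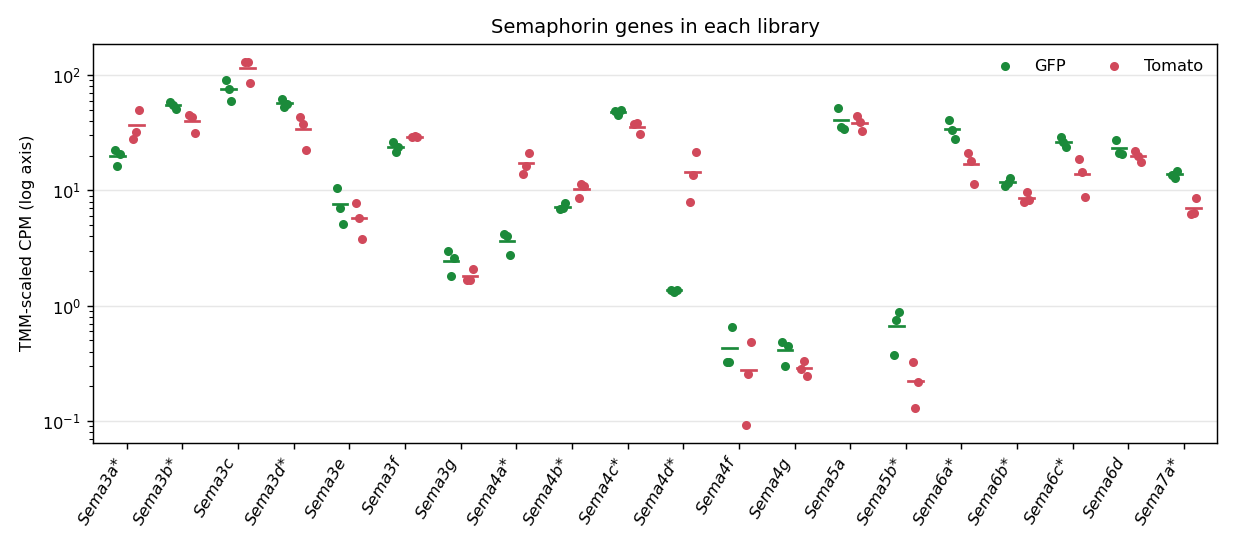
TMM-scaled CPM of the 20 semaphorin genes on a log axis, with a point for each library (GFP in green, left, and Tomato in red, right), a bar for the mean of 3 libraries and an asterisk for genes past the threshold. The GFP points of Sema4d lie together near 1.36 CPM, far below the Tomato points, which spread from 7.98 to 21.5 CPM.

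Class 4, the membrane semaphorins best known in immunity, held the largest differences of the family. Sema4d, also called CD100, is carried by T cells and myeloid cells and signals through Plxnb1. It had 1.37, 1.31 and 1.38 CPM in GFP, against 7.98, 13.7 and 21.5 CPM in Tomato, from 44 to 51 reads in GFP and from 342 to 793 reads in Tomato. The GFP libraries were tightly grouped, the Tomato libraries spread widely, and the log2 fold change was -3.40 ± 0.36 (edgeR adjusted p = 0.00086). Sema4a, a costimulator made by dendritic cells and macrophages, had 4.23, 4.00 and 2.73 CPM in GFP, against 13.9, 16.4 and 21.2 CPM in Tomato. Its difference was -2.23 ± 0.21 (edgeR adjusted p = 0.000314). In both genes Tomato replicate 3 was highest, as it was for the summed macrophage and monocyte markers (108, 174 and 162 CPM in GFP, against 734, 1210 and 1790 CPM in Tomato), and the dendritic cell markers were 27.2 to 28.3 CPM in GFP and 49 to 74 CPM in Tomato, with 3 of 4 tested lower. Most of the GFP sum was Zbtb46, which was not called (24.9 CPM in GFP, 24.1 CPM in Tomato), while Itgax averaged 1.70 CPM in GFP and 22.1 CPM in Tomato and Ccl22 averaged 0.295 CPM in GFP and 9.90 CPM in Tomato. T, NK and B cell markers summed to 0.727 to 1.44 CPM in GFP and 1.63 to 2.16 CPM in Tomato, and none of the 8 passed the filter. The part of these cells in the result was not tested. Without Tomato replicate 3 both still passed, Sema4d with an edgeR adjusted p of 7.44e-05 and Sema4a at -2.06 with an edgeR adjusted p of 0.000142.

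The other class 4 genes moved less. Sema4c, a ligand of Plxnb2, had 49.2, 44.7 and 49.4 CPM in GFP, against 37.8, 38.8 and 30.8 CPM in Tomato, without overlap (0.42 ± 0.11, edgeR adjusted p = 0.0244). Its exons overlap those of the antisense gene D430040D24Rik over 334 bases, or 7.3% of their length. That gene had 220 reads over all libraries, against 9341 for Sema4c. A column of a single strand cannot separate antisense reads, since the strand totals were almost equal. The Sema4c call was just lost with that column (edgeR adjusted p = 0.0502). It was also lost without GFP replicate 1 (0.0783), without GFP replicate 3 (0.0774) and when scaled by library size alone (0.0927). Sema4b, a close relative with a scaffold-binding tail, had 6.92, 7.04 and 7.72 CPM in GFP, against 8.61, 11.5 and 10.8 CPM in Tomato (-0.51 ± 0.14, edgeR adjusted p = 0.0307). The Sema4b call was lost without any GFP replicate, Tomato replicate 2 or Tomato replicate 3 (adjusted p from 0.0606 to 0.115). Sema4f and Sema4g, stood below 1 CPM in every library, with 4 to 23 and 9 to 18 reads per library, and their differences did not pass (0.65 and 0.52, edgeR adjusted p = 0.407 and 0.292).

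Among the membrane semaphorins of classes 5 to 7, 5 of 7 were higher in GFP and none lower, with edgeR and with DESeq2, and at an unadjusted p under 0.05 again none was lower. Of these calls only that of Sema7a was kept under every alternative. Those of Sema5b, Sema6a, Sema6b and Sema6c were each lost under some, as given below, so the count of 5 was not stable. The edgeR shares over all genes tested were 13.1% higher and 15.7% lower. At an unadjusted p under 0.05, 3218 of the 15608 genes were higher and 3414 lower. Sema7a (chromosome 9, 57940112 to 57962865), the only one fixed to the membrane by a lipid anchor and a ligand of Plxnc1 and of integrin beta 1, had 13.6, 12.9 and 14.8 CPM in GFP, against 6.30, 6.36 and 8.66 CPM in Tomato. The fractions were well apart, at 0.95 ± 0.15 (edgeR adjusted p = 0.00325). No single library decided this call, and the highest adjusted p on leaving one out was 0.0204. Sema6a, a ligand of Plxna2 and Plxna4, had 40.6, 33.2 and 28.0 CPM in GFP, against 21.3, 17.8 and 11.4 CPM in Tomato (1.01 ± 0.23, edgeR adjusted p = 0.0178). Sema6c had 28.9, 26.3 and 23.7 CPM in GFP, against 18.6, 14.4 and 8.69 CPM in Tomato (0.92 ± 0.25, edgeR adjusted p = 0.0295). Sema6b, a ligand of plexin A receptors, had 10.9, 11.6 and 12.8 CPM in GFP, against 7.91, 9.60 and 8.28 CPM in Tomato (0.45 ± 0.13, edgeR adjusted p = 0.0303). In these 3 genes every GFP library lay above every Tomato library.

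Sema6d, a Plxna1 ligand known in chicks from the developing heart, averaged 23.2 ± 3.86 CPM in GFP and 19.8 ± 2.11 CPM in Tomato (SD, n = 3 each), and did not pass (0.23, edgeR adjusted p = 0.247). Sema5a, which carries thrombospondin repeats beside its semaphorin domain, averaged 40.5 ± 9.61 CPM in GFP and 38.6 ± 5.67 CPM in Tomato (0.07, edgeR adjusted p = 0.781), and its sign turned under 5 of the alternatives. Sema5b, its relative, rested on 14, 25 and 31 reads in GFP, against 14, 5 and 8 reads in Tomato (1.54 ± 0.46, edgeR adjusted p = 0.037). It stood below 1 CPM in every library, at 0.377 CPM in GFP replicate 1 and 0.327 CPM in Tomato replicate 1. Under the filter of 1 CPM in 3 libraries Sema5b was not tested. The Sema6a call was lost without GFP replicate 1 (adjusted p = 0.0522) and with no filter (0.0646). The Sema6c call was lost without any GFP replicate or Tomato replicate 2 (from 0.0545 to 0.0783), with no filter (0.1) and with the column of a single strand (0.0522). The Sema6b call was lost without any library but Tomato replicate 2 (from 0.0564 to 0.104), when scaled by library size alone (0.143) and when length and GC were modelled (0.0631). The Sema5b call was lost without GFP replicate 2 or 3 or Tomato replicate 2 or 3 (from 0.0786 to 0.122) and when length and GC were modelled, both with the block (0.0542) and without it (0.0522).

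Of the 9 plexins, the receptors that signal inside the cell through a domain acting on small GTPases, 3 were higher, 1 lower and 4 not called, and Plxnb3 was not tested. Among all genes tested, 13.1% were higher and 15.7% lower. Plxnd1 (chromosome 6, 115954811 to 115995005), the receptor of Sema3e in developing vessels, had 35.7, 25.1 and 29.8 CPM in GFP, against 18.5, 18.2 and 16.1 CPM in Tomato. All GFP libraries were higher (0.78 ± 0.14, edgeR adjusted p = 0.00511). Plxna1, a partner of neuropilins and the receptor of Sema6d, had 63.7, 60.8 and 57.0 CPM in GFP, against 45.2, 43.5 and 33.3 CPM in Tomato (0.57 ± 0.12, edgeR adjusted p = 0.0119). The antisense gene Gm26811 overlaps 10.7% of the Plxna1 exons, and the strand columns together held 1.08 times the reads of the column for both strands. Gm26811 itself had 5 reads over all libraries, against 11278 for Plxna1. In the column of a single strand, which cannot separate antisense reads, the Plxna1 difference was 0.59 (edgeR adjusted p = 0.00909). Plxna3, the plexin A that acts with Nrp2 in axon pruning, had 14.1, 8.66 and 9.55 CPM in GFP, against 7.91, 5.69 and 4.10 CPM in Tomato. The gap between the fractions was narrow (0.86 ± 0.27, edgeR adjusted p = 0.0434), and the call was lost without any library but Tomato replicate 1 (adjusted p from 0.0573 to 0.141), when scaled by library size alone (0.0516) and with no filter (0.0595).

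Plxnb1 (chromosome 9, 109095389 to 109119917), the receptor of Sema4d, which can pair with the receptor kinases Met and Erbb2, was the only receptor called lower. It had 2.02, 1.40 and 1.80 CPM in GFP, against 6.83, 6.20 and 8.25 CPM in Tomato, from 47 to 75 reads in GFP and from 241 to 304 reads in Tomato. The log2 fold change was -2.02 ± 0.20 (edgeR adjusted p = 0.000375). Met was also lower, with 6.24 ± 0.671 CPM in GFP and 27.5 ± 3.19 CPM in Tomato (SD, n = 3 each; -2.14, edgeR adjusted p = 4.69e-05), while Erbb2 did not pass, with 27.4 ± 3.79 CPM in GFP and 23.0 ± 2.91 CPM in Tomato (0.26, edgeR adjusted p = 0.186). The sums of epithelial, mesothelial and macrophage markers moved the same way as Plxnb1, and their part in the result was not tested. Of the epithelial markers, Krt8 had 14.4 ± 2.35 CPM in the GFP fraction and 171 ± 10.5 CPM in Tomato. Epcam had 4.94 ± 0.771 CPM in GFP and 12.3 ± 2.61 CPM in Tomato. Plxnb2, the receptor of Sema4c, had the highest level of the family in both fractions and averaged 146.6 ± 22.3 CPM in GFP and 143 ± 8.09 CPM in Tomato (0.03, edgeR adjusted p = 0.852). Per kilobase of exon, the Plxnb1 level was 0.00902 to 0.01 times that of Plxnb2 in GFP, against 0.0353 to 0.0487 times in Tomato. Plxnb3, a receptor of Sema5a, had 1 to 3 reads per library in GFP and 1 to 10 in Tomato.

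The remaining plexins did not pass. Plxna4, a receptor of Sema3a and Sema6a, averaged 36.6 ± 2.27 CPM in GFP and 42.9 ± 9.26 CPM in Tomato (-0.23, edgeR adjusted p = 0.284). It passed as lower without Tomato replicate 3 (-0.40, edgeR adjusted p = 0.0195) and when the replicate block was added to the length and GC model (-0.41, edgeR adjusted p = 0.0267). Plxnc1, the receptor of Sema7a, averaged 5.78 ± 0.632 CPM in GFP and 7.505 ± 1.11 CPM in Tomato (-0.38, edgeR adjusted p = 0.109). It passed as lower when scaled by library size alone (-0.55, edgeR adjusted p = 0.0454) and when the block was added to the length and GC model (-0.42, edgeR adjusted p = 0.0316). Plxna2, which binds Sema6a, averaged 7.75 ± 1.82 CPM in GFP and 8.22 ± 1.82 CPM in Tomato (-0.09, edgeR adjusted p = 0.788).

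**Figure D3:**
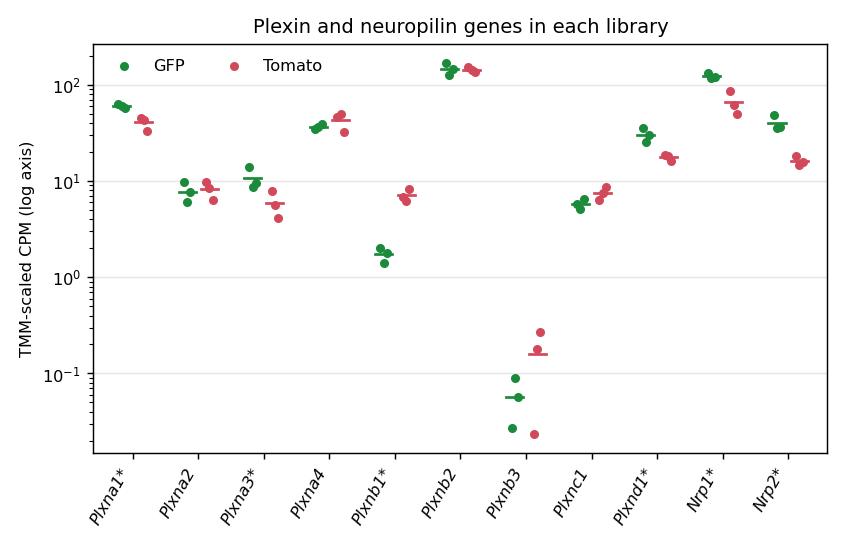
TMM-scaled CPM of the 9 plexin and 2 neuropilin genes on a log axis, with a point for each library (GFP in green, left, and Tomato in red, right), a bar for the mean of 3 libraries and an asterisk for genes past the threshold. Both neuropilins and Plxnd1 are separated with GFP above, Plxnb1 is separated with GFP below, and the fractions meet at Plxnb2.

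Both neuropilins were higher in GFP. Nrp2 (chromosome 1, 62703285 to 62818695), the neuropilin of veins, lymphatic vessels and Sema3f signalling, had 48.4, 35.2 and 36.2 CPM in GFP, against 18.0, 14.7 and 15.8 CPM in Tomato. The lowest GFP library stood well above the highest Tomato library, at 1.30 ± 0.15 (edgeR adjusted p = 0.000663). Nrp1 (chromosome 8, 128358604 to 128503363), which binds Sema3a and VEGF-A and is found on fibroblasts and endothelium, had 132, 117 and 120.3 CPM in GFP, against 86.3, 62.1 and 49.5 CPM in Tomato. The fractions did not overlap, and the Tomato libraries were the more spread (0.90 ± 0.18, edgeR adjusted p = 0.0103). Without each single library the adjusted p was up to 0.00526 for Nrp2 and up to 0.0434 for Nrp1. Per kilobase of exon, the Nrp2 level was 0.303, 0.248 and 0.248 times that of Nrp1 in GFP, against 0.172, 0.196 and 0.264 times in Tomato, so the balance between the pair overlapped between the fractions.

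All 5 lymphatic and 6 of 8 blood endothelial markers tested were higher in the same GFP libraries as the neuropilins and Plxnd1. Kdr, with 37.89 CPM in GFP and 49.65 CPM in Tomato (-0.39), and Vwf (0.05) were not called. The lymphatic endothelial markers summed to 493, 353 and 309 CPM in GFP, against 77.6, 48.4 and 22.2 CPM in Tomato, and both they and Nrp1 were lowest in Tomato replicate 3, while Nrp2 was lowest in Tomato replicate 2 and Plxnd1 in Tomato replicate 3. Prox1, which defines lymphatic identity, averaged 27.0 ± 7.85 CPM in GFP and 3.31 ± 2.38 CPM in Tomato (SD, n = 3 each). The fibroblast markers summed to 72300, 64100 and 65600 CPM in GFP, against 44200, 36500 and 30000 CPM in Tomato. Most of that sum and of its difference was Col1a1 (33970 CPM in GFP, 13790 CPM in Tomato) and Col1a2 (20530 CPM in GFP, 10690 CPM in Tomato), while Dcn, Lum, Pdpn and Fap were not called. Of the 30 members tested, 18 had their lowest Tomato value in replicate 3, as did 9 of the 13 called higher in GFP. The same count was not made over all genes, so these counts do not mark the family out. The part of endothelial, macrophage or fibroblast content in these differences was not tested. Without Tomato replicate 3, 9 members were higher and 6 lower in GFP, with Nrp2 at 1.28 (edgeR adjusted p = 0.00105) and Nrp1 at 0.72 (0.00673).

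**Figure D4:**
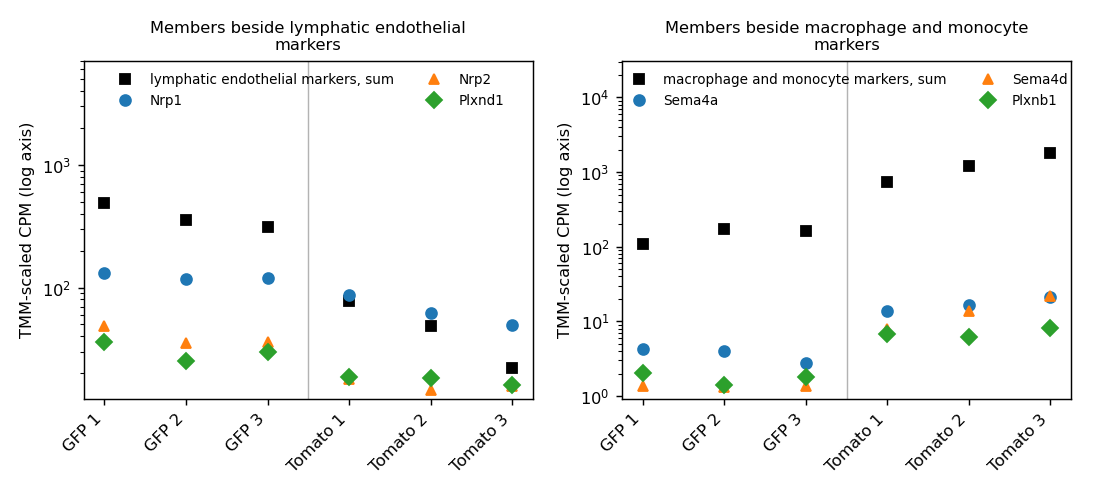
TMM-scaled CPM on a log axis in each of the 6 libraries, with black squares for the sum of a marker list and coloured symbols for members. On the left the lymphatic endothelial sum, 309 to 493 CPM in GFP and 22.2 to 77.6 CPM in Tomato, stands beside Nrp1, Nrp2 and Plxnd1, and on the right the macrophage and monocyte sum, 108 to 174 CPM in GFP and 734 to 1790 CPM in Tomato, stands beside Sema4a, Sema4d and Plxnb1.

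Levels of different genes were compared as CPM divided by the length of the gene's exons in kilobases (RPKM). Plxnb2 led in both fractions, at 19.0 ± 2.89 RPKM in GFP and 18.6 ± 1.05 RPKM in Tomato (SD, n = 3 each). Next in GFP came Nrp1 (12.6 ± 0.800), Sema3b (11.5 ± 0.784), Sema3c (10.6 ± 2.18) and Sema4c (10.4 ± 0.575), of which neighbours lay within their spread. In Tomato the next were Sema3c (16.04 ± 3.61), Sema3b (8.37 ± 1.53), Sema4c (7.79 ± 0.952) and Nrp1 (6.74 ± 1.92), and the last 3 lay within their spread. Sema4a ranked 23 of 31 in GFP and 9 of 31 in Tomato, while Nrp2 ranked 13 in GFP and 21 in Tomato. In both fractions 9 members stayed under a mean of 1 RPKM, and 22 reached it in at least either fraction.

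Summed per class on the RPKM scale, the secreted class 3 ligands overlapped between the fractions, at 32.9 to 40.7 in GFP and 31.1 to 41.4 in Tomato. Plexins B also overlapped, at 16.4 to 22.2 in GFP and 18.6 to 20.4 in Tomato, since Plxnb2 makes up nearly all of this sum. Class 6 semaphorins summed to 12.4 to 14.9 in GFP and 6.52 to 9.62 in Tomato, class 7 to 3.91 to 4.49 in GFP and 1.91 to 2.63 in Tomato, plexins A to 10.7 to 11.8 in GFP and 6.87 to 9.84 in Tomato, and neuropilins to 15.0 to 17.6 in GFP and 6.39 to 10.3 in Tomato, each without overlap. Class 4 semaphorins, in which 3 genes were lower and Sema4c was higher, summed to 12 to 13 in GFP and 13.4 to 15.5 in Tomato, also without overlap.

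**Figure D5:**
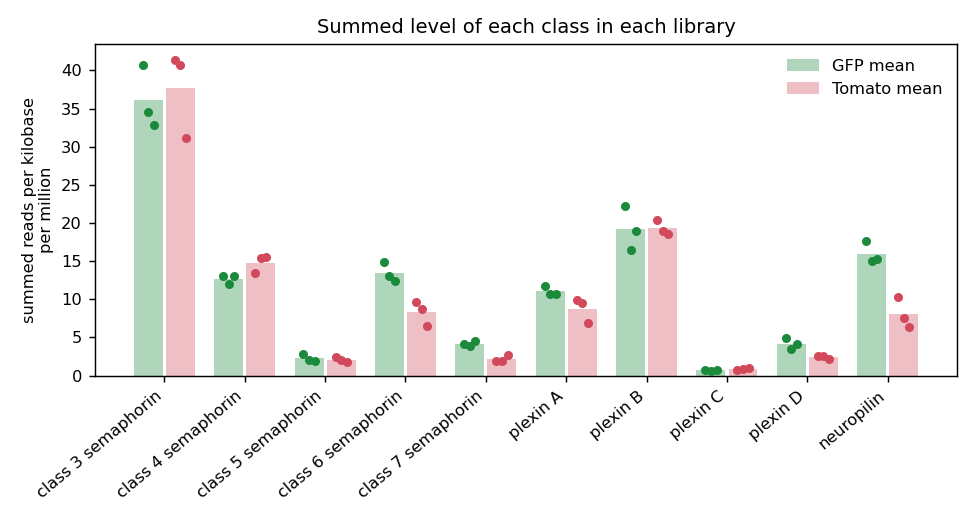
Summed level of each class in RPKM, with bars for the mean of 3 libraries and points for each library (GFP in green, left, and Tomato in red, right). Class 6, class 7, plexin A, plexin D and neuropilins are separated with GFP above, class 4 is separated with GFP below, and classes 3 and 5, plexin B and plexin C overlap.

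Genes that act with the family were counted from lists of its partners. Of 5 VEGF ligands that neuropilins bind, none passed the test (edgeR; none of the 5 had an unadjusted p under 0.05 and DESeq2 and limma-voom also called none), with Vegfa at 513 ± 68.5 CPM in the GFP fraction and 472 ± 108 CPM in Tomato (SD, n = 3 each; 0.12, edgeR adjusted p = 0.62) and Vegfc, the main lymphatic growth factor, at 29.3 ± 1.15 CPM in the GFP fraction and 28.8 ± 2.44 CPM in Tomato. With the replicate block 1 of the 5 was higher. Of 16 co-receptors and other receptors 15 were tested, with 5 higher and 4 lower in GFP (8 and 4 with the block), where 13.1% of all genes tested were higher and 15.7% lower (20.1% and 20.9% with the block). Flt4, the VEGF-C receptor that pairs with Nrp2, was higher, with 54.4 ± 18.7 CPM in GFP and 7.76 ± 2.28 CPM in Tomato (2.81, edgeR adjusted p = 0.00117), and so were Itga1, the integrin subunit that binds Sema7a with integrin beta 1 (0.78, edgeR adjusted p = 0.00234), and the plexin partner Ptk7 (0.66, edgeR adjusted p = 0.00656). The 3 lower genes with the smallest adjusted p were Met, Trem2, a myeloid receptor that pairs with Plxna1 (-2.73, edgeR adjusted p = 0.000789), and Cd72, the B cell receptor of Sema4d (-2.49, edgeR adjusted p = 0.00105). Kdr, the main VEGF receptor of blood vessels, did not pass (-0.39, edgeR adjusted p = 0.151).

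Among genes that act inside the cell, calls went both ways. Of 24 GTPases, exchange factors and kinases downstream of plexins, 5 were higher and 2 lower (7 and 4 with the block). Over all genes tested, 13.1% were higher and 15.7% lower (20.1% and 20.9% with the block). Taken in either direction without the block, the calls were near the 28.9% of all genes. The median log2 fold change of the 24 was 0.03, against 0.00 over all genes. Gsk3b, a kinase of the Sema3a response (0.50, edgeR adjusted p = 0.00885), Limk1, which phosphorylates cofilin (0.50, 0.0225), and Farp1, an exchange factor that acts with Plxna4 (0.47, 0.0241), were higher. Rras2, of the R-Ras family that plexins act on (-0.49, edgeR adjusted p = 0.0124), and Arhgef12, an exchange factor for RhoA bound by plexins B (-0.31, 0.0414), were lower. Of 10 CRMP, MICAL and MICAL-like genes, some of which relay Sema3a to microtubules and actin, 4 were higher and 1 lower. The shares over all genes were the same 13.1% and 15.7%. Mical3 (0.81, edgeR adjusted p = 0.00884), Crmp1 (2.57, 0.0112) and Dpysl3 (0.55, 0.0146) were higher, while Dpysl5, a CRMP of the nervous system, averaged 0.499 ± 0.341 CPM in GFP libraries and 7.27 ± 0.876 CPM in Tomato libraries (-3.87, edgeR adjusted p = 0.00112). Of 8 proteases that cut semaphorins or related ligands, 5 were higher and none lower (median 0.48; at an unadjusted p under 0.05, and with DESeq2, again 5 and 0), beside 13.1% and 15.7% over all genes. Furin, the convertase that cleaves class 3 semaphorins, had 166 ± 14.4 CPM in GFP and 126 ± 7.81 CPM in Tomato (0.40, edgeR adjusted p = 0.0185). Mmp14, which sheds Sema4d, was higher by 0.55 (edgeR adjusted p = 0.00591), and the convertase gene Pcsk7 by 0.40 (edgeR adjusted p = 0.0165).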

How the data were processed

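RNA from Podoplanin-sorted GFP and Tomato cells (3 libraries each) was made into libraries from 150 ng of total RNA with a TruSeq kit, per the labels' protocols. The deposited values are raw read counts per gene, unstranded and by strand, as the file headers name them. Trim Galore 0.4.3, STAR 2.5.2b and GRCm38 are listed, without roles, per the submitters' processing notes. The release of the annotation is not given in the sources used here. Tests used the unstranded column. The strand columns had almost the same totals (ratio 1.0022 to 1.0063), so reads of overlapping antisense genes cannot be told apart.

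Of 49671 genes, 49412 matched GENCODE M21 by identifier, which gave symbols, coordinates (1-based) and merged exon lengths. GFP was compared with Tomato by edgeR 4.0.16 in R 4.3.3 (quasi-likelihood F test, two-sided, robust, TMM scaling, filterByExpr, no block), with Benjamini-Hochberg adjustment over 15608 genes and a threshold of 0.05. The standard error is the fold change over the root of F. On simulated counts the steps were tested before use. The alternatives were DESeq2 1.42.0, limma-voom (limma 3.58.1), other scalings and filters, only the first-strand column, only protein-coding genes, a threshold of 0.01, the replicate number as a block, offsets per library for transcript length and GC content (splines with 4 degrees of freedom), and leaving out each library.

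Same-numbered libraries deviated together from their group means (correlations 0.403, 0.108 and 0.347, each over the limit of 0.1), so equal numbers were taken as pairs in the fit with the block, while the reported values come from the fit without it; this pairing rests on the data, since the labels state none. No replicates were duplicates (chi-square over its degrees of freedom 25.5 to 107). The members and lists were chosen with earlier results of these data known. All 31 members are named, and of each partner list the genes called with the smallest adjusted p, up to 3 in each direction. Erbb2, Kdr, Vegfa and Vegfc were added after their values were seen. So were the markers Ccl21a, Ccl22, Cdh1, Cdh19, Cldn4, Col1a1, Col1a2, Dcn, Epcam and Fap. The same holds for the markers Itgax, Krt7, Krt8, Krt18, Lum, Muc1, Pdpn, Prox1, Sox10, Vwf and Zbtb46. No sample was left out.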

Additional observations from a re-analysis of the deposited data

How the results depend on the processing

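Of the 18 members called, 6 kept their call in all 18 alternatives and Plxna1 and Nrp1 lost it only at a threshold of 0.01. The other 10 lost it elsewhere, and for these the cause was not tested. Scaling by library size alone left 8 members higher and 8 lower in GFP, among 1128 genes higher and 3851 lower. Of these members, 4 ligands were higher and 6 lower, and 2 receptors were lower. At a threshold of 0.01, 3 members were higher and 3 lower (ligands 1 and 2, receptors higher 2), among 578 and 1083 genes. With no filter 5 ligands were higher. The length and GC correction, which moved the median of all genes to 0.12, gave 5 ligands higher and 6 lower, and 1596 genes lower. The replicate block raised the genes called to 3137 higher and 3256 lower, took no member's call away, and added Sema3c, Sema3e and Sema3f; beyond the results given with it above, it changed no other call of a member. The block with that correction gave 9 members lower, 3 receptors lower and 4182 genes higher.

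Leaving out each library gave 6 to 12 members higher and 3 to 6 lower, 2 to 7 ligands higher and 2 to 4 lower, 4 to 5 receptors higher and 1 to 2 lower, and 833 to 2392 genes higher and 1380 to 2793 lower. No called member changed sign. Among those not called, Sema5a turned to -0.094 when scaled by library size alone, -0.17 when length and GC were modelled and -0.18 with the block as well, and lay at -0.14 to 0.18 without single libraries. Plxnb2 turned to -0.13, -0.079 and -0.084 under the same 3 settings and to -0.002 with a single strand column, and lay at -0.083 to 0.14 without single libraries, and Plxna2 at -0.271 to 0.072. Members below 1 CPM rest on few reads.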
